A study of Marchantia polymorpha with 9 samples.

Results

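The genes described here encode the enzymes that open and close the shikimate pathway in the liverwort Marchantia polymorpha. They are Mapoly0008s0188, annotated as 3-deoxy-D-arabino-heptulosonate-7-phosphate synthase (DAHP synthase), and Mapoly0007s0052, annotated as chorismate synthase. They were chosen by identifier, as the genes given these 2 annotations in the study's list of shikimate and phenylpropanoid genes, and are 2 of the 19287 genes in the expression table. Thalli of 3 groups were sequenced at 3 weeks of age, and the labels number 3 samples in each group. Tak-1 was the untransformed male wild type. MpBHLH12ox#2 and MpBHLH12ox#3, labelled MpGL3ox#2 and MpGL3ox#3, were independent transformants of Tak-1 that carried MpBHLH12 (also called MpGL3), a basic helix-loop-helix transcription factor, fused to the yellow fluorescent protein Citrine under the constitutive 35S promoter. No agent was applied to any group, and every group was grown at 22 °C under continuous light. Each transgenic group was 1 line, and both lines had gone through transformation while Tak-1 had not, so the transgene and transformation cannot be told apart.

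The shikimate pathway leads from sugar phosphates to chorismate, the common precursor of phenylalanine, tyrosine and tryptophan. In plants it runs in the plastid. DAHP synthase joins phosphoenolpyruvate and erythrose phosphate, which commits carbon to the pathway, and chorismate synthase makes chorismate itself. Phenylalanine made from chorismate feeds the phenylpropanoid pathway, from which liverworts make flavonoids, bibenzyls and the cell wall pigment riccionidin.

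The table held FPKM, which is the number of fragments scaled for gene length and library size, and the authors gave a single averaged value for each group. FPKM is corrected for gene length, so levels of different genes can be set side by side. Values of single samples were not analysed here, so the spread between replicates and the depth behind each value are unknown, and every value below is a description of these averages without a test. Changes are given as log2 (FPKM + 1) of a line minus that of Tak-1. The overexpressed gene MpBHLH12 (Mapoly0031s0161) had 20.3 FPKM in Tak-1, compared with 547.6 for MpBHLH12ox#2 and 474.6 for MpBHLH12ox#3, which follows the labels. At least 1 FPKM was reached in some group by 13324 genes, whose median changes of 0.0020 for MpBHLH12ox#2 and 0.0038 for MpBHLH12ox#3 leave the groups centred alike. Both lines were compared with the same Tak-1 average, which enters each pair of changes. The tissue label was not checked against markers, because the identifiers carry few gene names in the sources used here.

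DAHP synthase was more abundant in both MpBHLH12ox lines than in Tak-1. Mapoly0008s0188 had 273.7 FPKM in Tak-1, compared with 417.3 for MpBHLH12ox#2 and 372.0 for MpBHLH12ox#3. Tak-1 was thus the lowest group and MpBHLH12ox#2 the highest. The FPKM was 52.5% above Tak-1 in MpBHLH12ox#2 and 35.9% above it in MpBHLH12ox#3. On the log2 scale the change was 0.61 in MpBHLH12ox#2 and 0.44 in MpBHLH12ox#3.

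A larger increase than that of DAHP synthase was found for 5.75% of the 13324 genes in MpBHLH12ox#2 and for 11.4% in MpBHLH12ox#3. A log2 change of 0.5, the size used here to count genes, was passed in MpBHLH12ox#2 and missed in MpBHLH12ox#3. Among all genes with 1 FPKM or more, 8.04% were higher by this size in MpBHLH12ox#2, 9.68% in MpBHLH12ox#3 and 6.16% in both lines. DAHP synthase was therefore not among the genes higher by 0.5 in both lines. The lines lay 0.17 apart for this gene on the log2 scale. Across all genes the median distance between the lines was 0.093, and 26.0% of the genes were further apart than DAHP synthase.

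Chorismate synthase showed a smaller difference, which was nearly the same in the lines. Mapoly0007s0052 had 59.3 FPKM in Tak-1, compared with 67.6 for MpBHLH12ox#2 and 67.1 for MpBHLH12ox#3. The order of the groups was that of DAHP synthase, but the lines were separated by a log2 distance of only 0.0091, and 94.7% of all genes were further apart. The FPKM was 13.9% and 13.2% above Tak-1, log2 changes of 0.18 and 0.18 in MpBHLH12ox#2 and MpBHLH12ox#3. Increases larger than these were common. They were found for 23.3% of all genes in MpBHLH12ox#2 and 25.2% in MpBHLH12ox#3. Being higher than Tak-1 in both lines, as both synthases were, was a property of 41.5% of all genes.

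**Figure D1:**
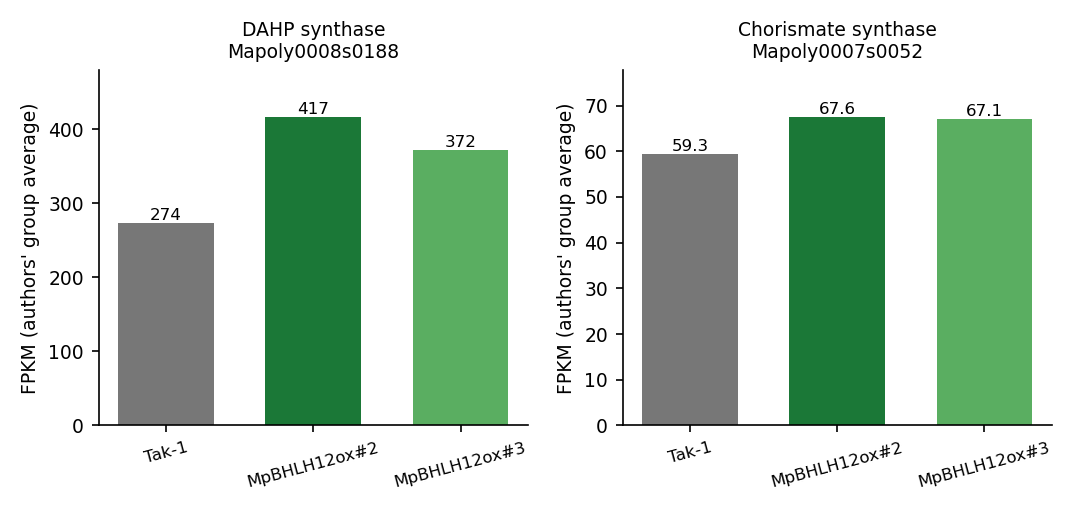
FPKM (vertical axes from 0, authors' group averages, no error bars because replicate values were not analysed) of DAHP synthase and chorismate synthase in Tak-1, MpBHLH12ox#2 and MpBHLH12ox#3. DAHP synthase went from 273.7 in Tak-1 to 417.3 and 372.0 in the lines, and chorismate synthase from 59.3 to 67.6 and 67.1.

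The first step was expressed well above the last. In Tak-1 the level of DAHP synthase was 4.61 times that of chorismate synthase. The ratio was 6.17 in MpBHLH12ox#2 and 5.54 in MpBHLH12ox#3. The change of DAHP synthase exceeded that of chorismate synthase by 0.42 in MpBHLH12ox#2 and by 0.27 in MpBHLH12ox#3 on the log2 scale. DAHP synthase was one of the more abundant transcripts of the thallus, with 2.78% of the 13324 genes above it in Tak-1, against 1.73% for MpBHLH12ox#2 and 1.97% for MpBHLH12ox#3. For chorismate synthase, 12.5%, 10.4% and 10.5% of the genes were above it in the same order.

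The study's list holds 7 genes for 6 activities of the shikimate pathway, including the 2 synthases. All 7 had 1 FPKM or more in each group. None passed a log2 change of 0.5 in both lines, against 6.16% higher and 5.07% lower of all genes with 1 FPKM or more. Between the synthases, in the order of the reactions, stand 3-dehydroquinate synthase, 3-dehydroquinate dehydratase, shikimate kinase and 5-enolpyruvylshikimate-3-phosphate (EPSP) synthase. The median change of the 7 genes was -0.04 in MpBHLH12ox#2 and -0.06 in MpBHLH12ox#3.

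The early and middle steps after DAHP synthase had slightly lower averages in both lines. 3-Dehydroquinate synthase (Mapoly0031s0094), which closes the first ring, had 84.4 FPKM in Tak-1, compared with 82.1 for MpBHLH12ox#2 and 76.9 for MpBHLH12ox#3. 3-Dehydroquinate dehydratase (Mapoly0047s0090), which in flowering plants is fused to shikimate dehydrogenase, had 46.6, 42.8 and 44.8 FPKM in the same order. Shikimate kinase, which phosphorylates shikimate, is represented by a pair of genes. Mapoly0089s0033, the more abundant, had 116.5, 109.1 and 107.6 FPKM. Mapoly0035s0139 had 31.2, 24.6 and 25.0 FPKM, log2 changes of -0.33 and -0.31, the largest differences below Tak-1 among the 7 genes.

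EPSP synthase and chorismate synthase, the last steps, resembled each other. EPSP synthase (Mapoly0034s0104), the target of the herbicide glyphosate, had 41.7 FPKM in Tak-1, compared with 48.1 for MpBHLH12ox#2 and 46.9 for MpBHLH12ox#3. Its log2 changes were 0.20 and 0.17, next to 0.18 and 0.18 for chorismate synthase. The 7 genes thus held 3 that were higher in both lines, beside 41.5% of all genes with 1 FPKM or more, and 4 that were lower in both. The share of all genes lower in both was not computed. Some of these changes were small, such as -0.04 for 3-dehydroquinate synthase in MpBHLH12ox#2 and -0.06 for 3-dehydroquinate dehydratase in MpBHLH12ox#3. Across all genes the median distance between the lines was 0.093.

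**Figure D2:**
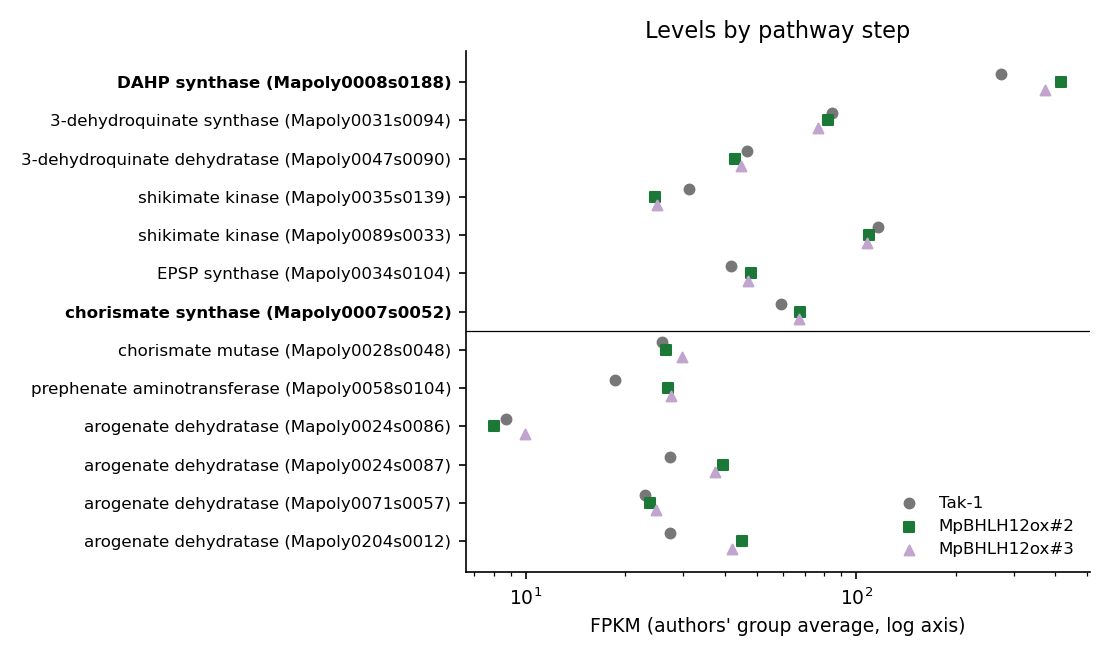
FPKM (log axis, authors' group averages) of the shikimate pathway genes above the line and of the genes from chorismate to phenylalanine below it, in pathway order, for Tak-1 (circles), MpBHLH12ox#2 (squares) and MpBHLH12ox#3 (triangles). DAHP synthase had the highest level in every group, and in Tak-1 it was 2.35 times the next gene, the shikimate kinase Mapoly0089s0033.

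The sum of the 7 genes was 653.4 FPKM in Tak-1, compared with 791.5 for MpBHLH12ox#2 and 740.2 for MpBHLH12ox#3. DAHP synthase alone made up 41.9% of this sum in Tak-1, against 52.7% and 50.3% in MpBHLH12ox#2 and MpBHLH12ox#3. Its level was 143.6 FPKM above Tak-1 in MpBHLH12ox#2 and 98.3 FPKM above it in MpBHLH12ox#3. The other 6 genes together differed from Tak-1 by -5.40 FPKM (-1.42%) in MpBHLH12ox#2 and -11.4 FPKM (-3.01%) in MpBHLH12ox#3. The higher sum of the pathway in the lines therefore lay in DAHP synthase. The share of chorismate synthase was 9.08% in Tak-1, against 8.54% for MpBHLH12ox#2 and 9.07% for MpBHLH12ox#3. FPKM summed over all genes was also lower in both lines than in Tak-1, and differences relative to that sum were not computed.

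Downstream of chorismate, the genes on the way to phenylalanine included some with increases of the size of DAHP synthase. The list gives 6 such genes, and 2 of them were higher by 0.5 in both lines and none lower, beside 6.16% higher and 5.07% lower of all genes with 1 FPKM or more. With a pseudocount of 5 the number higher was 1. Their median change was 0.28 in MpBHLH12ox#2 and 0.31 in MpBHLH12ox#3. Chorismate mutase (Mapoly0028s0048), which turns chorismate into prephenate, had 25.8 FPKM in Tak-1, compared with 26.6 for MpBHLH12ox#2 and 29.6 for MpBHLH12ox#3, which is 3.00% and 14.6% above Tak-1. Prephenate aminotransferase (Mapoly0058s0104), which makes arogenate, had 18.6, 27.0 and 27.6 FPKM, log2 changes of 0.51 and 0.54.

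Arogenate dehydratase makes phenylalanine and is encoded by 4 genes of the list, which differed among themselves. Mapoly0204s0012 had 27.3 FPKM in Tak-1, compared with 45.2 for MpBHLH12ox#2 and 42.0 for MpBHLH12ox#3, which are log2 changes of 0.71 and 0.60. Mapoly0024s0087 had 27.3, 39.6 and 37.3 FPKM, log2 changes of 0.52 and 0.44, which like DAHP synthase passed 0.5 in MpBHLH12ox#2 only. The remaining arogenate dehydratase genes were near Tak-1. Mapoly0071s0057 had 23.0, 23.8 and 24.9 FPKM, and Mapoly0024s0086, the neighbour by number of Mapoly0024s0087, had 8.74, 8.04 and 9.94 FPKM. How the counting treated reads common to related genes is not stated, so the values of single family members are uncertain.

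**Figure D3:**
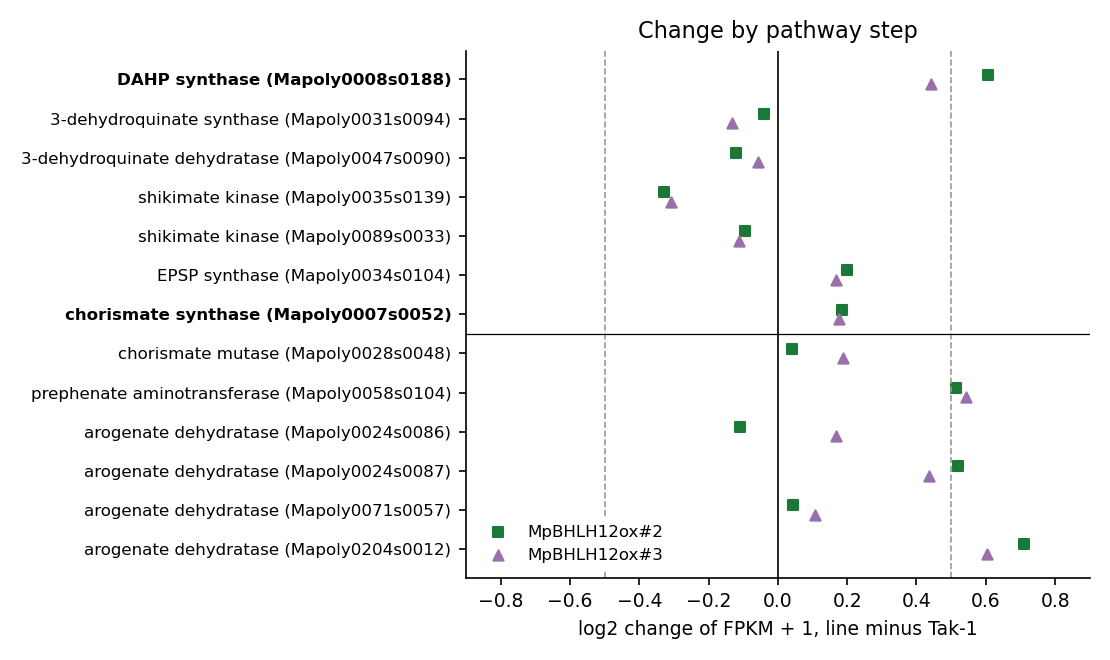
Change in log2 (FPKM + 1), line minus Tak-1 (horizontal axis), for each gene in pathway order, with MpBHLH12ox#2 as squares, MpBHLH12ox#3 as triangles and dashed lines at 0.5 in either direction. DAHP synthase (0.61 and 0.44) lies apart from the other shikimate pathway genes, which range from -0.33 to 0.20 in MpBHLH12ox#2 and from -0.31 to 0.18 in MpBHLH12ox#3.

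At the entry of the phenylpropanoid pathway, 5 of 16 genes were higher by 0.5 in both lines and none was lower, again beside 6.16% and 5.07% of all genes. A pseudocount of 5 left 3 of the 16 higher by this size. These 16 encode phenylalanine ammonia lyase (PAL), which deaminates phenylalanine, cinnamate 4-hydroxylase and 4-coumaroyl-CoA ligase. Their median change was 0.32 in MpBHLH12ox#2 and 0.47 in MpBHLH12ox#3. The 10 PAL genes summed to 227.2 FPKM in Tak-1, compared with 358.6 for MpBHLH12ox#2 and 372.4 for MpBHLH12ox#3, and 4 of them passed 0.5 in both lines, 3 of which lie on scaffold 70. Outside scaffold 70, 2 of 12 entry genes passed 0.5 in both lines, with median changes of 0.22 in MpBHLH12ox#2 and 0.39 in MpBHLH12ox#3. The PAL gene Mapoly0132s0049 alone went from 53.6 FPKM to 155.1 and 161.0, and it was the 1 gene of the lists higher by a log2 change of 1 in both lines, a size passed by 1.56% of all genes with 1 FPKM or more. The cinnamate 4-hydroxylase gene Mapoly0163s0018 had 197.8, 335.4 and 342.5 FPKM, the level nearest to DAHP synthase in these lists.

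Among all 29 genes from DAHP synthase to 4-coumaroyl-CoA ligase, DAHP synthase had the highest FPKM in every group. By the size of the increase it came 5th in MpBHLH12ox#2 and 12th in MpBHLH12ox#3. Chorismate synthase came 7th by level in Tak-1 and 8th in each line, and 16th and 18th by the increase. The line with the higher average differed between these genes. DAHP synthase and the arogenate dehydratase genes Mapoly0204s0012 and Mapoly0024s0087 were highest in MpBHLH12ox#2, by log2 distances of 0.17, 0.11 and 0.08. The PAL gene Mapoly0132s0049, the cinnamate 4-hydroxylase gene Mapoly0163s0018 and prephenate aminotransferase were highest in MpBHLH12ox#3, by only 0.05, 0.03 and 0.03. Of these distances, only those of DAHP synthase and Mapoly0204s0012 exceeded the median of 0.093 across all genes. These orders rest on averages without error.

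**Figure D4:**
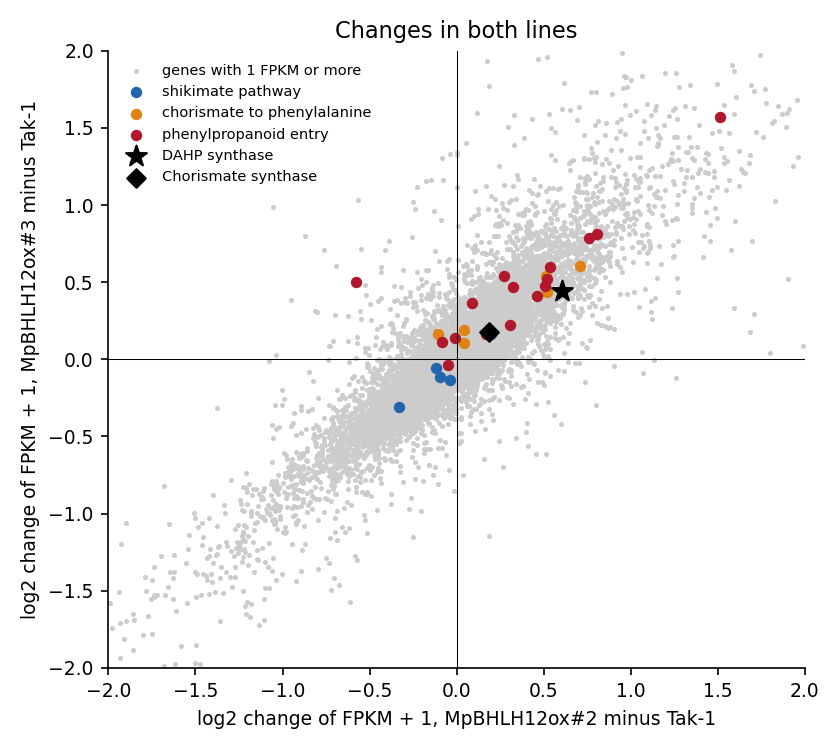
Change in log2 (FPKM + 1) against Tak-1 in MpBHLH12ox#2 (horizontal axis) and MpBHLH12ox#3 (vertical axis) for the 13324 genes that reached 1 FPKM (grey) and the 3 gene lists (colours), with 128 genes outside the axes. DAHP synthase (star) came 5th of the 29 list genes by increase in MpBHLH12ox#2 and 12th in MpBHLH12ox#3. Chorismate synthase (diamond) lies closer to the centre of all genes.

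Other genes that touch the pathway were few in the annotation used here. Enolase makes phosphoenolpyruvate, a substrate of DAHP synthase. Mapoly0005s0074, annotated as enolase, had 106.8 FPKM in Tak-1, compared with 85.7 for MpBHLH12ox#2 and 84.9 for MpBHLH12ox#3. It was lower in both lines by 0.31 and 0.33 on the log2 scale. Whether this gene supplies the shikimate pathway was not examined. The beta chain of tryptophan synthase (Mapoly0002s0153), on the tryptophan branch from chorismate, had 65.1, 68.6 and 62.9 FPKM. Mapoly0005s0075, annotated with a 3-dehydroquinate synthase domain but absent from the study's list, had 5.09, 4.78 and 5.12 FPKM. None of these 3 genes was higher than Tak-1 by more than 0.08 in either line.

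The genes numbered next to each synthase on its scaffold differed from it in level or in change. Next to DAHP synthase on scaffold 8, Mapoly0008s0189 had 217.6 FPKM in Tak-1, compared with 212.2 for MpBHLH12ox#2 and 206.3 for MpBHLH12ox#3. On the other side, Mapoly0008s0187 was low but had a larger increase, with 3.16, 10.6 and 8.71 FPKM and log2 changes of 1.48 and 1.22. One number further out, Mapoly0008s0186 had at most 0.19 FPKM, and Mapoly0008s0190 was listed at 0 in Tak-1 and had 0.65 and 0.28 FPKM in the lines. Of the 164 genes of scaffold 8 with 1 FPKM or more, 5.49% were higher by 0.5 in both lines, near the 6.16% of all genes. Next to chorismate synthase on scaffold 7, Mapoly0007s0051 had 18.8, 16.3 and 17.3 FPKM and Mapoly0007s0053 had 17.5, 14.6 and 16.2 FPKM. Both were below Tak-1 in the lines, where chorismate synthase was above it. Mapoly0007s0050 had 12.7, 15.3 and 15.5 FPKM, and Mapoly0007s0054 was listed at 0 in every group.

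The genes most like each synthase were sought by the distance between their pairs of changes, among genes with a Tak-1 level within 2-fold of the synthase. For DAHP synthase there were 483 such genes, and the nearest were Mapoly0007s0187 (distance 0.19), Mapoly0059s0068 (0.21) and Mapoly0035s0014 (0.22). Mapoly0007s0187 had 206.6 FPKM in Tak-1, compared with 351.5 for MpBHLH12ox#2 and 300.7 for MpBHLH12ox#3. That it shares the order of the groups with DAHP synthase follows from the choice by likeness. For chorismate synthase there were 2694 such genes, and the nearest lay far closer, with Mapoly0033s0094 at 0.0026, Mapoly0016s0087 at 0.0039 and Mapoly0055s0110 at 0.0055. The nearest genes were thus less like DAHP synthase, which had fewer candidates, than those found for chorismate synthase. Likeness was judged over 3 averages only.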

How the data were processed

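The labels give 3 RNA-Seq samples each for Tak-1, MpBHLH12ox#2 and MpBHLH12ox#3, from thalli aged 3 weeks. Each collection took 9 pieces of thallus of about 5 mm. Mapping by the authors used Bowtie2 and the JGI_3.1 genome, and fragments were determined by HTseq. The paper then tested genes with EdgeR and reports differential expression for part of its shikimate and phenylpropanoid list. Those calls were not used here. The submitters' processing notes also name Cuffdiff 2.2.1. FPKM was deposited by the authors after averaging within each group, and the program behind it is not stated in the paper or labels.

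Changes were computed as log2 (FPKM + 1) of a line less that of Tak-1. A linear model was planned for replicate values. As the table holds averages, no test was made, and genes were counted at a log2 change of 0.5 in the same direction in both lines. A pseudocount understates changes of low genes. Other settings tried were pseudocounts of 0.1 and 5, changes centred on their median, a size of 1, the mean of both lines and other filters.

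Genes named were the 2 synthases, MpBHLH12, 29 genes in 3 lists annotated by the study and genes within 2 numbers on the scaffold. The 3 genes most alike and 3 further annotated genes were also named. Elongation factor-1α was added outside the plan. Members and lists were chosen with earlier results of these data known. Against the MpTak2_v7.1 reference table the identifiers gave 0 matches, hence gene names are those of the study's tables and no sequence is shown. Functions were tested on simulated data. Python 3.11.15, numpy 2.4.6, pandas 2.3.3 and matplotlib 3.10.9 were used.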

Additional observations from a re-analysis of the deposited data

How the results depend on the processing

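The changes of the synthases hardly depended on the pseudocount or on centring the changes on their median. This was fixed beforehand, because both synthases lay far above the pseudocounts and the medians were only 0.0020 and 0.0038. Mapping, counting and normalization were not varied. Over the pseudocounts and rescaling, DAHP synthase ranged from 0.60 to 0.61 in MpBHLH12ox#2 and stayed at 0.44 in MpBHLH12ox#3, and chorismate synthase ranged from 0.17 to 0.19 and from 0.17 to 0.18. Of 80 values recomputed, 75 stayed within the limit set for them, which for a change was the SD between the lines for genes averaging at least 5 FPKM (0.14) and for a count or share 1.5 times. The exceptions were counts. With the mean of both lines past 0.5, 1 shikimate pathway gene was counted as higher in place of 0, and this was DAHP synthase. With a pseudocount of 5, the genes higher in both lines numbered 1 of those from chorismate to phenylalanine and 3 at the phenylpropanoid entry. At a size of 1 these numbers were 0 and 1. A larger pseudocount or size lowers such counts by construction. The filter at 1 FPKM could not alter the counts of the lists, because all 29 list genes reached it. Centring moved every change by no more than the small medians. Part of the 75 was therefore also fixed beforehand. No paired analysis was possible because replicates had been averaged within groups before deposit. The planned fits without each replicate and with a replicate block were therefore not run, and depth could not be examined.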

Other observations

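The PAL gene Mapoly0044s0114 had the largest distance between the lines among the 29 genes of the lists. It was 1 of 4 that lay on opposite sides of Tak-1 in the lines, a trait whose share over all genes was not computed. It had 3.31 FPKM in Tak-1, compared with 1.90 for MpBHLH12ox#2 and 5.12 for MpBHLH12ox#3, which are log2 changes of -0.58 and 0.50. The lines lay 1.08 apart, whereas 90% of the genes with 1 FPKM or more had lines within 0.29 of each other. The difference was not tested, because the averages give no spread between replicates. The qRT-PCR standard of the study, elongation factor-1α (Mapoly0024s0116), was 13.8% above Tak-1 in MpBHLH12ox#2 and 11.0% above it in MpBHLH12ox#3, close to the 13.9% and 13.2% of chorismate synthase. Larger increases than those of chorismate synthase were found for 23.3% of all genes in MpBHLH12ox#2 and 25.2% in MpBHLH12ox#3.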
